A study of Mus musculus with 204 samples.

Results

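The lean adrenal gland was compared with lean retroperitoneal fat, the fat depot that lies behind the abdominal cavity close to the kidney and adrenal. The members are the 2223 genes with a mean of at least 10 reads per 1000000 reads of a library (CPM) over 8 libraries, of 13153 genes in the deposited table. The 8 libraries are lean adrenal 2, 3, 4 and 5 and lean retroperitoneal fat 1, 3, 4 and 5, of 204 libraries from 21 lean and obese tissues. All mice were male C57BL/6J, an inbred strain, with no transgene or treatment named in the labels, lean or obese through feeding (DIO). The series text gives 5 mice per diet, and some tissues have fewer than 5 libraries of a diet, though adrenal and retroperitoneal fat have 5 of each. Lean mice ate chow with 13.1% fat, and DIO mice ate a diet with 60% fat for 10 weeks. The labels are inconsistent on age: they give mice obtained at 6 to 12 weeks and a diet begun at 4 weeks. The labels do not tie libraries to mice, so p-values measure the spread between these libraries only.

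The adrenal is 2 glands in 1 capsule. The cortex makes steroid hormones from cholesterol: it stores cholesterol as esters, frees it on demand and oxidises it in mitochondria and endoplasmic reticulum, under pituitary corticotropin (acting through cyclic AMP) and angiotensin. The medulla consists of chromaffin cells, neural crest derivatives that make catecholamines from tyrosine and release them with peptides from dense-core granules. White fat stores triglyceride in adipocytes held in a collagen matrix, and takes up and releases fatty acids.

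The table held genes of chromosomes 1, 2, 3 and X and 413 genes of chromosome 4, so many adrenal and adipocyte genes were not analysed here. The 8 libraries had 8.19 to 21.8 M reads in all, of which 18.4% to 21.1% fell on these genes. No pair of replicates agreed within sampling noise (chi-square per degree of freedom at least 16.8). By rank correlation over 3765 genes with the median profile of each lean tissue, the 4 adrenal libraries were closest to adrenal (0.973 to 0.984), and fat 5 was nearer to epididymal fat (0.990) than to retroperitoneal fat (0.986). Lean adrenal 1 and lean fat 2 are not among the 8. Adrenal 1 had 0 CPM of Hsd3b1 and 0.316 CPM of Chgb and was closest to mesenteric fat (0.951). Fat 2 was closest to retroperitoneal fat (0.986). Both were set aside on marker genes seen earlier. The levels of cortex markers in the 4 adrenal libraries are therefore not independent of that choice.

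Many genes differed between the tissues. In limma on log2(CPM + 1), 1233 of 2223 genes (55.5%) passed an adjusted p of 0.05, 930 higher in adrenal (41.8%) and 303 lower (13.6%). The median gene was 0.37 higher in adrenal on this log2 scale. After rescaling the libraries by median-of-ratios factors the median was 0.02 and 1105 genes passed (49.7%), 601 higher (27.0%) and 504 lower (22.7%), a share of higher calls of 54.4% in place of 75.4%. Of the calls, 904 passed after rescaling in the same direction and 0 in the opposite one. With all 10 lean libraries 738 genes passed, 447 higher and 291 lower. Unless stated otherwise, log2 differences below are adrenal minus fat after rescaling, with their standard error (SE) and limma's adjusted p, while levels are CPM. The scale log2(CPM + 1) understates the difference of genes that are near 0 in one tissue, and a bulk library cannot tell fewer cells of a type from less RNA per cell.

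**Figure D1:**
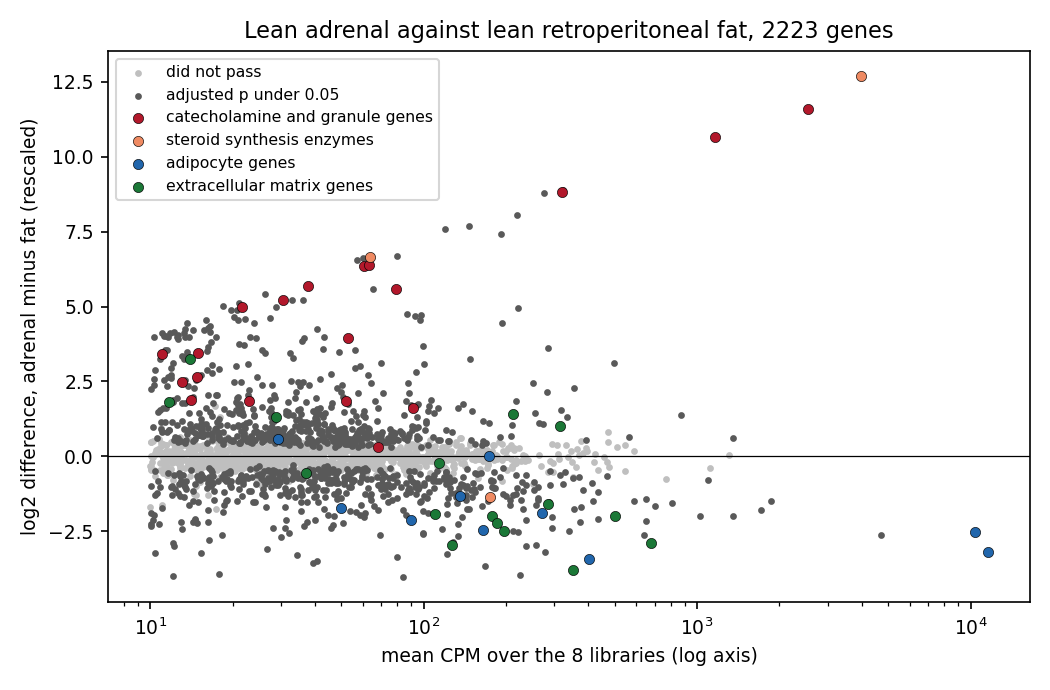
Each point is 1 of the 2223 genes tested; the x axis is the mean CPM over the 8 libraries (log axis) and the y axis the rescaled log2 difference, adrenal minus fat. Coloured points are members of 4 gene lists that passed the filter: Hsd3b1 lies at the upper right at 12.70, most granule genes lie above 0, and most adipocyte and matrix genes lie below 0.

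On the CPM scale, more large differences lay on the adrenal side. At least 4-fold differences (CPM scale, adjusted p under 0.05) were seen for 190 genes higher in adrenal (8.55%) and 47 lower (2.11%). The median gene was 0.37 higher in adrenal on this log2 scale, and 4-fold genes were not counted after rescaling. The 12 largest on the adrenal side were Hsd3b1, Chgb, Scg2, Akr1cl, Dbh, Mgarp, Klhdc8a, Nr5a1, Hao2, Tmem35a, 1500015O10Rik and Hsd3b6. For all 12, the adrenal had the highest median of the 21 lean tissues, and so it did for 59 of the 190. The 12 largest on the fat side were Ctcflos, Phgdh, Dpt, Synpo2, Fgf13, Sucnr1, Nnat, Marc1, Hmcn2, Tmem182, Car3 and Cd1d1. Of the 47, 30 were highest in a fat depot and 10 of those in retroperitoneal fat itself. Groups did not overlap for 1143 genes (51.4%), 872 with adrenal higher (39.2%) and 271 with adrenal lower (12.2%). On the recovered reads, edgeR called 1100 genes (49.5%), 569 of them higher (25.6%) and 531 lower (23.9%).

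Steroid enzymes came first. Hsd3b1, the enzyme that turns pregnenolone into progesterone, was at 4239, 9184, 9172 and 9092 CPM in adrenal 2, 3, 4 and 5, and no read was counted in the 4 fat libraries. Against a floor of 3 reads over the fat group this is at least 187904-fold higher (log2 difference 12.70 ± 0.20, adjusted p 5.76e-11). The next highest tissue, kidney, had a median of 0.0878 CPM. Adrenal 2 had less than 50% of the level of the other 3 libraries, which lay close together.

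Hsd3b6, a paralog used in the aldosterone-making outer zone of the mouse cortex, was at 67.0, 79.6, 245 and 118 CPM in adrenal and at 0 reads in fat, at least 3205-fold higher (6.64 ± 0.35, adjusted p 4.49e-07). Hsd3b2 and Hsd3b3 stayed under 5 CPM in every library and were not tested. Paralogs of this family have near-identical sequences, and how reads shared between them were counted is not given in the sources used here. Hsd11b1, which regenerates active glucocorticoid from its inert keto form, ran the other way: 139, 110, 125 and 79.3 CPM in adrenal against 307, 313, 143 and 186 in fat (−1.37 ± 0.29, adjusted p 0.00317). All 4 fat libraries were above all 4 adrenal libraries. Of 23 steroid enzymes listed, 6 were in the table and 3 passed the filter, 2 higher and 1 lower; without the filter, the other 3 did not pass the test.

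**Figure D2:**
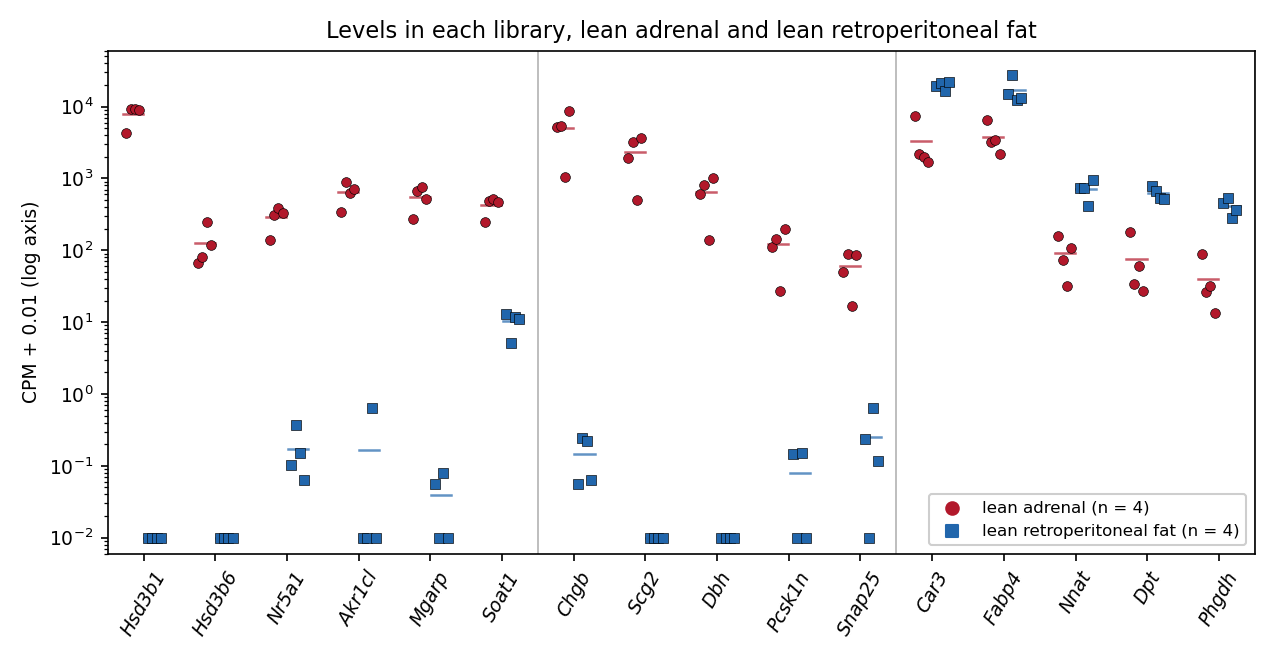
Each point is the CPM of 1 library plus 0.01 on a log axis (circles, 4 lean adrenal; squares, 4 lean retroperitoneal fat), and bars are group means; points on the lowest line are libraries with no read. The first 6 genes are enzymes, a regulator and other large differences (Hsd3b1 to Soat1), the next 5 are granule genes of the medulla list with adrenal 4 as the low circle, and the last 5 are higher in fat with adrenal 2 as the high circle.

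Other genes with the largest adrenal levels were close to absent from fat. Nr5a1, the nuclear receptor SF-1 that specifies steroidogenic cells, was at 139, 313, 391 and 327 CPM in adrenal and between 0.0533 and 0.355 CPM in fat (7.68 ± 0.26, adjusted p 1.67e-08). Mgarp, a mitochondrial protein abundant in steroid-making tissue, was at 275, 668, 757 and 511 CPM, with 2 reads over the fat group, a ratio of 20376 (exact 95% counting interval 5640 to 168262). The aldo-keto reductase family gene Akr1cl was at 345, 899, 635 and 715 CPM and had reads in 1 fat library, at 0.633 CPM (8.89 ± 0.26, adjusted p 5.77e-09). In each of these genes adrenal 2 was the lowest of the 4, as it was for 139 of the 190 genes at least 4-fold higher.

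Hao2, a peroxisomal 2-hydroxy acid oxidase, had no read in fat and was at least 5954-fold higher in adrenal, where its median of 242.6 CPM was near that of kidney, at 240.0 CPM. The chaperone gene Tmem35a, needed for the assembly of nicotinic acetylcholine receptors, was at 227, 423, 444 and 439 CPM in adrenal against at most 1.17 CPM in fat (7.43 ± 0.23, adjusted p 6.72e-09). Klhdc8a, a kelch-domain gene, was at 238, 524, 536 and 457 CPM against at most 0.373 CPM (8.07 ± 0.20, adjusted p 2.48e-09).

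Regulators of the cortex did not all move one way. Of 20 listed, 9 were in the table and 4 passed the filter: 3, Nr5a1 among them, were higher in adrenal and 1, Inhbb, was lower. Inhbb, the beta B subunit of activins and inhibins, was at 8.61 to 29.5 CPM in adrenal and 43.7 to 65.3 CPM in fat (−2.32 ± 0.37, adjusted p 0.000518). Under the filter, Nr0b1, an orphan receptor that represses SF-1, had 190 reads in adrenal and 0 in fat (at least 83.6-fold). Without the filter, 6 of the 9 passed as higher and 1 as lower, where 31.8% of 6258 genes passed, 23.5% as higher and 8.34% as lower.

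Most of the receptor, channel and signalling genes measured were higher in adrenal. Of the 24 listed, 10 were in the table and 8 passed the filter; all 8 passed the test as higher on the CPM scale, and 6 of 8 after rescaling. Among all genes, 41.8% were higher on the CPM scale and 27.0% after rescaling. Without the filter, 8 of the 10 were higher, against 23.5% of all 6258 genes, and 1 was lower, against 8.34%. The lower one was the phosphodiesterase gene Pde11a, at 0.235 to 0.489 CPM against 0.746 to 1.47 CPM. Agtr2, an angiotensin receptor, was at 39.3, 60.7, 16.9 and 52.4 CPM in adrenal and had no read in fat (at least 958-fold higher; 5.12 ± 0.41, adjusted p 8.95e-06). Agtr1b, the angiotensin receptor that drives aldosterone output in rodents, lay under the filter at 8.94 to 23.2 CPM, with 901 reads in adrenal and 3 in fat, a ratio of 396 (135 to 1926). Adrenal 4 was the lowest library for Agtr2 and the highest for Agtr1b.

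Atp1b1, a beta subunit that carries ion pumps to the cell surface, was at 53.4 to 118 CPM in adrenal and 2.07 to 7.73 CPM in fat (3.57 ± 0.34, adjusted p 2.28e-05). The adenosine A1 receptor gene Adora1 was at 395 to 610 CPM against 140 to 204 CPM (1.31 ± 0.18, adjusted p 0.000219), and the adrenal had the highest median of the 21 tissues. Of the cyclic AMP path, Prkacb, a catalytic subunit of protein kinase A, was higher (1.17 ± 0.20, adjusted p 0.00077), and so was Gnas, which encodes the stimulatory G protein (0.61 ± 0.20, adjusted p 0.0296). The potassium channel gene Kcnk2 (0.79 ± 0.39, adjusted p 0.120) and Creb1, the factor that binds cyclic AMP response elements (0.32 ± 0.22, adjusted p 0.252), did not pass after rescaling.

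The few cholesterol genes tested split by role: the ester cycle genes Soat1 and Nceh1 were far higher in adrenal. Synthesis enzymes were lower or did not pass. Soat1, which esterifies cholesterol for storage, was at 244, 488, 526 and 471 CPM in adrenal against 13.0, 5.03, 11.7 and 11.1 CPM in fat (4.94 ± 0.27, adjusted p 5.64e-07). Nceh1, a hydrolase of cholesterol esters, was at 123, 214, 201 and 224 CPM against 5.04, 2.60, 6.04 and 5.86 CPM (4.71 ± 0.23, adjusted p 2.44e-07). For both genes the groups were far apart, with adrenal 2 again the lowest adrenal library.

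On the synthesis side, Nsdhl (−1.07 ± 0.26, adjusted p 0.00631), Ebp (−1.02 ± 0.19, adjusted p 0.00149) and Pmvk (−1.21 ± 0.36, adjusted p 0.0179) were lower in adrenal. The groups overlapped for Nsdhl and Pmvk, and these 2 genes did not pass with all 10 lean libraries (adjusted p 0.0616 and 0.151). Hsd17b7 did not pass (−0.39 ± 0.27, adjusted p 0.255). Insig2, which holds back synthesis when sterol is ample, was lower only after rescaling (−0.72 ± 0.15, adjusted p 0.00281). Of 35 genes listed 8 were in the table and 7 passed the filter, 2 higher and 3 lower on the CPM scale, 2 higher and 4 lower after rescaling. Without adrenal 3, without adrenal 5 or without fat 4, 1 was lower on the CPM scale. With all 8 libraries, 41.8% of all genes were higher and 13.6% lower on that scale, and 27.0% and 22.7% after rescaling.

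Chromaffin granule genes formed the broadest group. Of 50 catecholamine and granule genes listed, 23 were in the table and 19 passed the filter; 18 were higher in adrenal under both scalings, 0 were lower and Syp did not pass. The median rescaled difference was 3.93, against 0.02 for all genes. Of the 23, 12 were under 1 CPM in every fat library. Those of them that were tested passed the filter through their adrenal level, so this median is not independent of the filter. Without the filter 22 of 23 were higher on the CPM scale, against 23.5% of all 6258 genes. Chgb, chromogranin B of the granule core, was at 5220, 5409, 1063 and 8664 CPM in adrenal and 0.0459 to 0.237 CPM in fat (11.59 ± 0.54, adjusted p 1.81e-07). Scg2, secretogranin II, was at 1947, 3229, 504 and 3639 CPM with no read in fat, at least 50131-fold higher. Dbh, which converts dopamine to noradrenaline inside the granule, was at 602, 810, 140 and 1014 CPM with no read in fat, at least 13757-fold higher. Adrenal 4 was by far the lowest adrenal library for all 3.

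The cyclic AMP response element is an 8-base motif bound by CREB, known from promoters of neuroendocrine genes. Both strands of RefSeq windows (GRCm38.p6; 250 bases before to 50 after the start site) were searched for TGACGTCA, which reads the same on both. It was found in 4 of the 17 granule-list genes with a window (23.5%), against 2.32% of tested genes, 2.03% of all 27025 promoters and 3.29% of genes at least 4-fold higher in adrenal (5 of 152). The SF-1 motif CAAGGTCA was found in 1.97% of the latter (3 of 152), 1.24% of tested genes and 1.76% of all promoters. These matches are a description of letters. The 4 windows are shown because the granins Chgb and Scg2 lead the medulla genes; Syn1 (a synaptic vesicle protein) and Kif5c (a kinesin motor), the other 2 with the motif, were singled out after it was found. Capitals mark the motif, and each line is 5′ to 3′ on the gene's strand and ends before the start site.
Chgb (chr2:132781522-132781641, plus strand, motif from base −72): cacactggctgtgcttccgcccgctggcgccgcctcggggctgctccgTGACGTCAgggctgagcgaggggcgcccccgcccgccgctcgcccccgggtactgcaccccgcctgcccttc
Scg2 (chr1:79440027-79440146, minus strand, motif from base −68): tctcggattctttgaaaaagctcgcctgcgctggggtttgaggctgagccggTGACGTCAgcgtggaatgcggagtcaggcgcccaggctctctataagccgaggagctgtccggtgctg
Syn1 (chrX:20920998-20921117, minus strand, motif from base −159): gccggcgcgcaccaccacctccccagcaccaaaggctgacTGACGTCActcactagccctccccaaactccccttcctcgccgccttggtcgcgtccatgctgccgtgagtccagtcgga
Kif5c (chr2:49619166-49619285, plus strand, motif from base −26): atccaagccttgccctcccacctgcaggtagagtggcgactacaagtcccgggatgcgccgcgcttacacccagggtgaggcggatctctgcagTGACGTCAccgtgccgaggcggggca

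Proteins of granule processing and release shared the pattern over libraries. Pcsk1n, an inhibitor of the prohormone convertase PC1, was at 112, 144, 27.4 and 199 CPM in adrenal against at most 0.141 CPM in fat (6.34 ± 0.52, adjusted p 1.02e-05). Ptprn, a granule membrane protein, was at 109, 169, 28.0 and 199 CPM (6.40 ± 0.52, adjusted p 1.02e-05). Resp18, an endocrine granule protein, was at 57.8, 130, 22.5 and 91.2 CPM (5.68 ± 0.47, adjusted p 1.09e-05). Snap25, a fusion protein of vesicle release, was at 50.1, 89.7, 16.9 and 87.4 CPM (5.21 ± 0.49, adjusted p 2.2e-05). For each of these 4, adrenal 4 was the lowest adrenal library and still above all fat libraries.

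Kif1a, a motor that carries dense-core vesicles, differed from them: adrenal 2 was its lowest library, at 96.1 CPM, and adrenal 4 had 104 CPM (5.58 ± 0.47, adjusted p 1.16e-05). Syp, synaptophysin, was measured at 43.6 to 51.7 CPM in fat and 30.4 to 127 CPM in adrenal, so the groups overlapped (0.33 ± 0.38, adjusted p 0.499). The transcription factor Insm1 of neuroendocrine cells lay under the filter, with 504 reads in adrenal and 0 in fat (at least 222-fold).

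**Figure D3:**
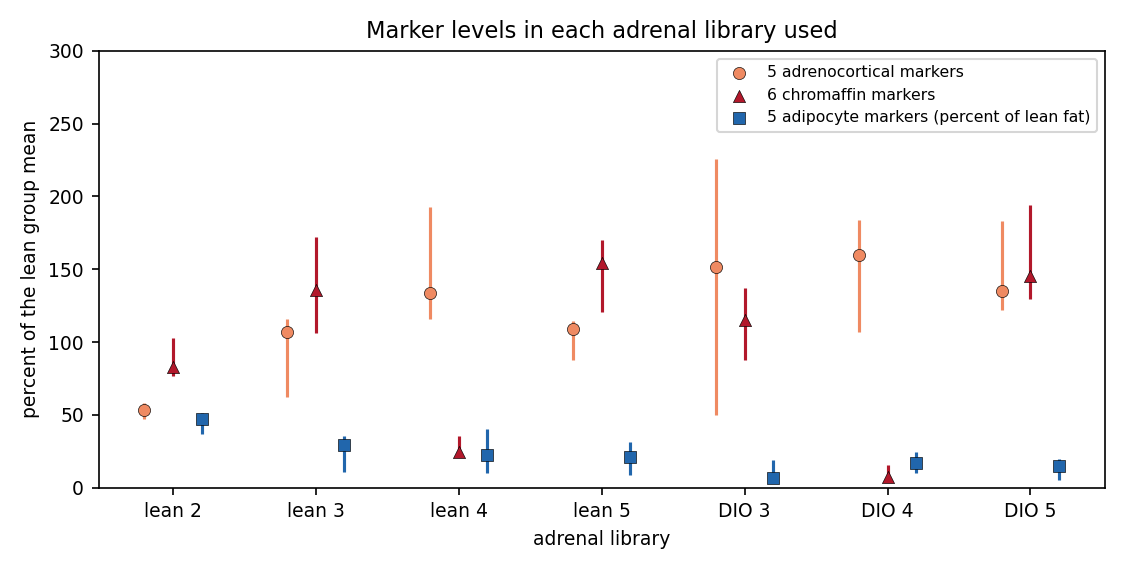
For each adrenal library used, symbols give the median and vertical lines the range over the markers of a cell type: 5 adrenocortical and 6 chromaffin markers in percent of the lean adrenal mean, and 5 adipocyte markers in percent of the lean retroperitoneal fat mean. Lean 2 has the lowest cortex level (53.5%) and the highest adipocyte level (47.1%); lean 4 and DIO 4 have the lowest chromaffin levels (24.8% and 7.47%).

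The adrenal libraries differed in their levels of cortex and medulla markers. Cortex markers (5 of the 10 listed were in the table) stood at medians of 53.5%, 107%, 134% and 109% of their lean adrenal mean in adrenal 2, 3, 4 and 5. Chromaffin markers (6 of 9) stood at 82.8%, 136%, 24.8% and 154%. Of the 190 genes at least 4-fold higher in adrenal, 30 were in adrenal 4 under 50% of every other lean adrenal library. The same 30 were in DIO adrenal 4 under 50% of both other DIO adrenal libraries used. Their level in lean adrenal 4 was 19.4% of the mean of the other 3 libraries (median; range 12.5% to 33.4%), while the other genes of the 190 stood at a median of 111%. The 30 were picked by their low level in lean adrenal 4, so the gap between these medians is not independent of that choice. In DIO adrenal 4 the median of the 30 was 6.11% of the mean of the other 2 (4.43% to 21.1%). How many of the other genes of the 190 were this low in DIO adrenal 4 was not counted.

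Of these 30 genes, 13 belong to the granule list. The rest, singled out for this pattern after it was seen, include genes of nerve cells: Grin1 and Gria2, which encode glutamate receptor subunits, Celf3, an RNA-binding protein, the potassium channel gene Kcnc4, and Tfap2b, a transcription factor of neural crest derivatives. Agtr2 was also among them, at 33.4% in lean adrenal 4. The cortex genes Hsd3b1, Nr5a1, Mgarp and Soat1 were not, with lean adrenal 4 at or near the highest level. Without lean adrenal 4 the differences of Chgb, Scg2 and Dbh on the CPM scale rose from 11.79 to 12.43, from 10.85 to 11.47 and from 9.01 to 9.63.

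Adipocyte genes were the mirror image, at a smaller distance. Of 34 listed, 10 were in the table and all 10 passed the filter; 8 were lower in adrenal, 1 was higher (Cebpb) and 1 did not pass (Adipor1), under both scalings. Their median was −2.002. The shares of all genes that were lower were 13.6% on the CPM scale and 22.7% after rescaling, and 41.8% and 27.0% were higher. Fabp4, the fatty acid carrier of adipocytes, was at 6519, 3196, 3414 and 2175 CPM in adrenal against 14841, 27224, 12346 and 13139 CPM in fat (−2.54 ± 0.46, adjusted p 0.00118). Car3, a carbonic anhydrase that is among the most abundant adipocyte proteins, was at 7389, 2209, 1999 and 1696 CPM against 19356, 21333, 16575 and 22021 CPM (−3.21 ± 0.51, adjusted p 0.000522). Groups did not overlap, yet both genes remained abundant in the adrenal libraries, most of all in adrenal 2.

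Nnat, neuronatin, was at 157, 73.0, 32.0 and 108 CPM against 732, 733, 417 and 967 CPM (−3.44 ± 0.47, adjusted p 0.000223). G0s2, the inhibitor of adipose triglyceride lipase, differed by −2.45 ± 0.28 (adjusted p 6.79e-05), Acvr1c, the activin receptor ALK7, by −2.12 ± 0.27 (adjusted p 0.000142) and Irs1, the insulin receptor substrate, by −1.74 ± 0.26 (adjusted p 0.000346). Ptger3, a prostaglandin E2 receptor, was lower with overlapping groups (−1.33 ± 0.35, adjusted p 0.0103) and did not pass with all 10 lean libraries (adjusted p 0.0542). Cebpb, a transcription factor of early adipocyte differentiation, was higher in adrenal, at 32.0 to 44.6 CPM against 15.03 to 28.2 CPM (0.58 ± 0.21, adjusted p 0.0420). It did not pass in edgeR.

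Adipocyte transcripts were present in every adrenal library. Adipocyte markers (5 of the 9 listed were in the table, none at 0 in either tissue) summed to 4708 to 15220 CPM in adrenal and 30802 to 51447 CPM in fat. In percent of the fat mean, their medians were 47.1%, 29.3%, 22.3% and 21.1% in adrenal 2, 3, 4 and 5. In fat, 3 of 5 cortex markers and 2 of 6 chromaffin markers were at 0 in every library; the chromaffin sum was 0.213 to 1.12 CPM, and the cortex sum was 5.39 to 13.1 CPM, nearly all of it Soat1. The part of fat tissue in the adrenal libraries in any difference was not tested.

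Other large fat-side genes came from several functions. Phgdh, the first enzyme of serine synthesis, was at 89.7, 26.1, 31.9 and 13.3 CPM in adrenal against 459, 533, 281 and 365 CPM in fat (−3.96 ± 0.50, adjusted p 0.000134), and retroperitoneal fat had the highest median of the 21 tissues. Sucnr1, the succinate receptor, was at 3.66 to 19.6 CPM against 61.1 to 82.5 CPM (−3.49 ± 0.42, adjusted p 9.46e-05). Cd1d1, which presents lipid antigens to NKT cells, was at 34.7 to 113 CPM against 325 to 594 CPM (−3.18 ± 0.35, adjusted p 6.05e-05), again highest in retroperitoneal fat. Pfkfb3, which makes the activator of glycolysis fructose 2,6-bisphosphate, was at 458, 170, 152 and 161 CPM against 731 to 1316 CPM (−2.63 ± 0.39, adjusted p 0.000345). Adrenal 2 was the highest adrenal library for all 4.

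Ctcflos had the largest difference on this side, −4.04 ± 0.42 (adjusted p 4.46e-05), at 7.21 to 27.4 CPM against 91.4 to 199 CPM. It is annotated as a transcript on the opposite strand of Ctcfl, and whether the counting used strand is not given in the sources used here. Gsn, the actin-severing protein gelsolin, was the third most abundant gene of this side, at 3124, 1152, 1778 and 971 CPM against 6793 to 8400 CPM (−2.63 ± 0.41, adjusted p 0.000438). Synpo2 (−3.67 ± 0.52, adjusted p 0.000279) and Tmem182 (−3.25 ± 0.53, adjusted p 0.000627) were highest in soleus muscle, with medians of 870.7 and 450.1 CPM. Skeletal muscle markers, of which 9 of 12 were in the table, summed to 1.22 to 2.58 CPM in adrenal and 11.6 to 19.4 CPM in the 4 fat libraries, and their part in these 2 differences was not tested. The other genes of the 12 were Fgf13, Marc1 and Hmcn2, with differences of −3.56 ± 0.57, −3.36 ± 0.52 and −3.29 ± 0.40 (adjusted p 0.000548, 0.000458 and 0.000108). Without lean adrenal 2 the differences of Fgf13 and Tmem182 on the CPM scale moved from −3.25 to −3.86 and from −2.90 to −3.50.

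**Figure D4:**
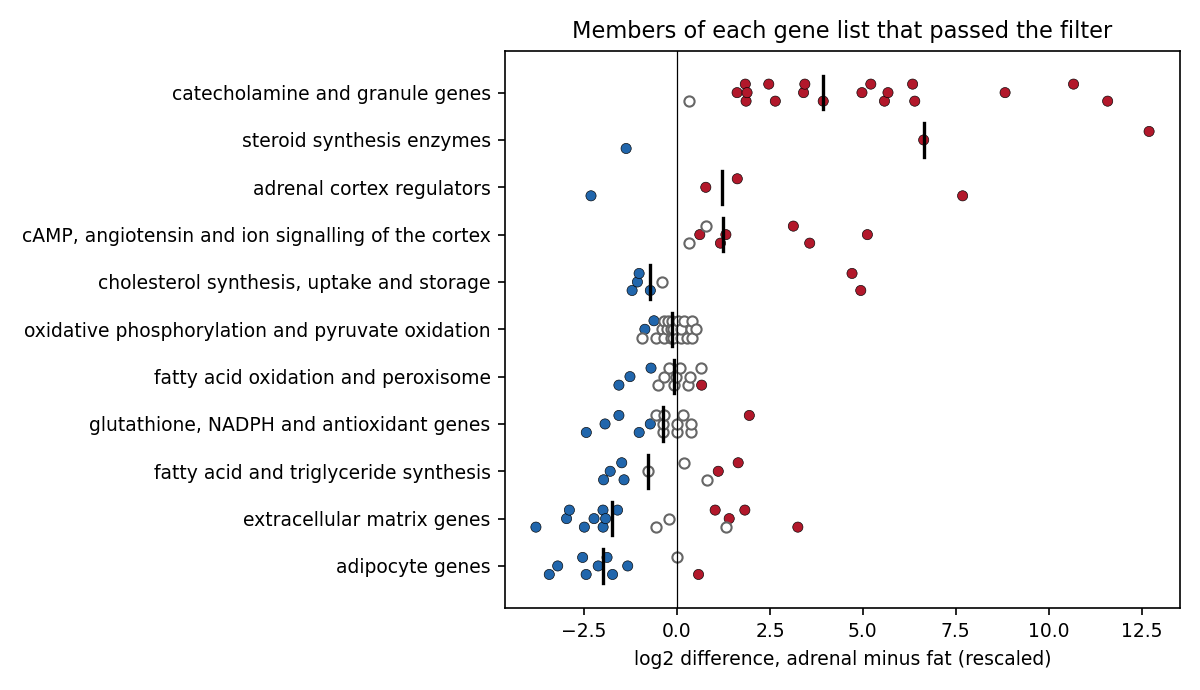
Each point is a list member that passed the filter, placed by its rescaled log2 difference (adrenal minus fat); filled points passed an adjusted p of 0.05 (red higher, blue lower), open points did not, and black bars are list medians. Granule genes spread to the right with a median of 3.93, adipocyte genes to the left with −2.002, and the mitochondrial list clusters around −0.14.

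Lipid synthesis genes did not move as a block. Of the 32 genes listed for fatty acid and triglyceride synthesis, 9 were in the table and passed the filter, 3 higher and 4 lower on the CPM scale, 2 and 4 after rescaling. Higher in adrenal were Gpd2, the mitochondrial glycerol phosphate dehydrogenase (1.11 ± 0.14, adjusted p 0.000149), and Lpin3, a phosphatidate phosphatase (1.65 ± 0.18, adjusted p 5.23e-05). Elovl6, an elongase of saturated fatty acids, was at 905, 562, 722 and 407 CPM against 210, 386, 400 and 184 CPM, without overlap, but did not pass after rescaling (0.80 ± 0.35, adjusted p 0.0822). Lower were Nr1h3, the oxysterol receptor LXR alpha (−1.98 ± 0.26, adjusted p 0.000189), Pck1, the glyceroneogenic enzyme (−1.80 ± 0.29, adjusted p 0.000522), Mogat1 (−1.49 ± 0.37, adjusted p 0.0076) and Acss2, which makes acetyl-CoA from acetate (−1.43 ± 0.36, adjusted p 0.00788). Agpat2 and Acsl3 did not pass.

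In lean mice, mitochondrial energy genes differed little once scaled. Of 24 oxidative phosphorylation and pyruvate oxidation genes in the table, 23 passed the filter; 6 were higher and 1 lower on the CPM scale, and 0 higher and 2 lower after rescaling, with 3 lower in edgeR. The median rescaled difference was −0.14. The shares over all genes were 41.8% higher and 13.6% lower on the CPM scale, and 27.0% and 22.7% after rescaling. The pair of lower genes were Ndufb3 of complex I (−0.86 ± 0.24, adjusted p 0.0113) and Atp5c1 of ATP synthase (−0.62 ± 0.23, adjusted p 0.0495), both with overlapping groups. Without fat 3, 12 were higher and 0 lower on the CPM scale in limma, and with array weights 13 were higher; the 1 lower call was also lost without adrenal 3, 4 or 5 or without fat 4 or 5. Fat 3 was the highest fat library for 23 of the 24 genes: Ndufb5 was at 181 CPM there and at 58.8 to 80.2 CPM in the other 3 fat libraries. Ndufc1 ran from 13.8 to 119 CPM within fat and from 19.5 to 80.4 CPM within adrenal. In the DIO contrast described below, 13 of 23 were higher and 1 lower on the CPM scale, against 42.8% and 22.6% of all genes.

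Fatty acid oxidation and peroxisome genes were as mixed: 13 passed the filter, 5 higher and 2 lower on the CPM scale, 1 higher and 3 lower after rescaling. Beside this list and the lipid synthesis and glutathione lists stand the shares over all genes. These were 41.8% higher and 13.6% lower on the CPM scale, and 27.0% and 22.7% after rescaling. Etfdh, which passes electrons from fatty acid oxidation to ubiquinone, was higher under both, at 237 to 328 CPM against 118 to 153 CPM (0.66 ± 0.16, adjusted p 0.00524). Catalase (Cat) was lower, at 749, 394, 436 and 425 CPM against 1103, 958, 1292 and 1137 CPM (−1.56 ± 0.27, adjusted p 0.000793), with adrenal 2 nearest to fat. Pex19, an import factor of peroxisomal membrane proteins, was lower too (−1.27 ± 0.20, adjusted p 0.000492).

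Among 15 glutathione, NADPH and antioxidant genes, 3 were higher and 4 lower on the CPM scale, 1 higher and 5 lower after rescaling. Without adrenal 2 or without fat 3, 5 were higher on the CPM scale. Gstm7, a glutathione transferase, was the exception on the adrenal side, at 33.1, 54.7, 47.0 and 58.8 CPM against 7.38 to 9.83 CPM (1.95 ± 0.18, adjusted p 1.83e-05). Its family members Gstm1, Gstm2 and Gstm5 did not pass and Gstm4 was lower (−1.02 ± 0.22, adjusted p 0.00296); these paralogs are similar in sequence, so reads may be shared. Gsta3 (−2.44 ± 0.40, adjusted p 0.000606) and Mgst3 (−1.94 ± 0.30, adjusted p 0.000471) were lower. G6pdx, the entry enzyme of the pentose phosphate path, was lower after rescaling only (−0.72 ± 0.18, adjusted p 0.0071).

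Matrix genes were mostly lower in adrenal. Of 35 listed, 19 were in the table and 16 passed the filter, 4 higher and 9 lower under both scalings, with a median of −1.76. Of all genes, 41.8% were higher and 13.6% lower on the CPM scale, and 27.0% and 22.7% after rescaling. Dpt, dermatopontin, which organises collagen fibrils, was at 180, 33.5, 59.9 and 27.0 CPM against 797, 675, 534 and 516 CPM (−3.80 ± 0.53, adjusted p 0.000245). The fibrillar collagen gene Col3a1 was at 511, 141, 190 and 91.5 CPM against 1258, 785, 1263 and 1171 CPM (−2.90 ± 0.47, adjusted p 0.000622), and Col5a2 (−2.97 ± 0.44, adjusted p 0.000349) followed it. Fn1, fibronectin, was lower with overlapping groups, since adrenal 2 had 191 CPM and fat 3 had 157 CPM (−2.49 ± 0.56, adjusted p 0.00432).

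The 4 matrix genes that were higher had other roles. Timp1, an inhibitor of matrix metalloproteinases, was at 17.2, 24.9, 30.7 and 33.7 CPM against 0.871 to 2.46 CPM (3.25 ± 0.30, adjusted p 1.95e-05). Ecm1 was at 274 to 395 CPM against 64.9 to 131 CPM (1.40 ± 0.23, adjusted p 0.000683) and did not pass with all 10 lean libraries (adjusted p 0.0841). The proteoglycan gene Bgn (1.03 ± 0.21, adjusted p 0.00217) and the basement membrane collagen gene Col4a5 (1.82 ± 0.62, adjusted p 0.0328) were the other 2. Col4a5 ranged from 0.178 CPM in fat 3 to 8.86 CPM in fat 4. Without fat 3 its difference on the CPM scale went from 2.10 to 1.49, and it did not pass in edgeR.

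Markers of cell types that both tissues hold gave a mixed account. Beside the counts below stand the shares over all genes. These were 41.8% higher and 13.6% lower on the CPM scale, and 27.0% and 22.7% after rescaling. Fibroblast markers (8 of 12 in the table) were lower in 5 of 8 cases on the CPM scale and 6 after rescaling, and summed to 525 to 1407 CPM in adrenal and 2225 to 3526 CPM in fat. Of 5 endothelial markers tested 2 were higher and 2 lower: Emcn, endomucin of sinusoids and veins, was at 100 to 174 CPM in adrenal against 30.5 to 46.4 CPM (1.39 ± 0.20, adjusted p 0.000306), while Egfl7 was lower (−1.44 ± 0.28, adjusted p 0.00172). Of 7 macrophage markers tested 2 were higher and 1 lower on the CPM scale, with a second lower after rescaling. Ctss, cathepsin S, was higher at 139 to 206 CPM against 30.3 to 52.4 CPM (1.69 ± 0.19, adjusted p 7.18e-05). Cybb, the phagocyte oxidase subunit, was higher too (0.89 ± 0.14, adjusted p 0.000454), while the mannose receptor gene Mrc1 was lower (−1.27 ± 0.28, adjusted p 0.0042).

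The chemokine receptor gene Cxcr4, listed as a lymphoid marker, was at 101, 115, 84.5 and 121 CPM in adrenal against 4.36 to 10.4 CPM in fat (3.56 ± 0.25, adjusted p 3.36e-06), and adrenal had the highest median of the 21 tissues. Ptprc, the pan-leukocyte marker of the same list, did not pass (0.05 ± 0.20, adjusted p 0.869). Hepatocyte markers (10 of 13 in the table) summed to 1.46 to 132 CPM in adrenal and 11.7 to 249 CPM in fat; none of the 4 tested passed in limma or edgeR.

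The same contrast was run in DIO mice, in libraries that the lean contrast did not use: DIO adrenal 3, 4 and 5 against the 5 DIO retroperitoneal fat libraries. By the same rank correlation, DIO fat 3 was closest to subcutaneous fat (0.902) and DIO fat 2 and 5 to epididymal fat (0.945 and 0.957), with 0.943 and 0.957 to retroperitoneal fat. DIO adrenal 1 and 2 were left out for near-absent cortex markers, at medians of 0.0197% and 0.00105% of the lean adrenal mean. The levels of cortex genes in DIO adrenal 3, 4 and 5, and their calls in this contrast, are therefore not independent of that choice. In the DIO contrast 1502 of 2298 genes passed (65.4%), 983 higher (42.8%) and 519 lower (22.6%). After rescaling 1388 passed (60.4%), 751 higher (32.7%) and 637 lower (27.7%). Of 2158 genes tested in both diets, 933 passed in the same direction in both, which is 78.5% of the 1188 lean calls and 66.3% of the 1408 DIO calls. Another 13 passed in opposite directions. Of 210 genes at least 4-fold different in lean mice and tested in DIO mice, 202 passed in DIO mice in the same direction. With DIO adrenal 1 and 2 put back, 135 genes passed.

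Leading genes of both parts of the gland were measured in the DIO libraries too. Hsd3b1 was at 12653, 11314 and 10596 CPM in DIO adrenal 3, 4 and 5, and 1 of the 5 DIO fat libraries had reads, at 0.0923 CPM. All 3 DIO adrenal libraries were above all 4 lean ones for Hsd3b1 and for Nr5a1, which was at 661, 467 and 429 CPM (8.78 ± 0.19, adjusted p 1.98e-09). Chgb was at 5493, 307 and 7710 CPM, with DIO adrenal 4 the low library. For none of the 3 did the difference of the contrast between diets pass (rescaled adjusted p 0.249, 0.0956 and 0.559).

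Whether the tissue difference itself differed between diets was tested as an interaction in 1 fit over the 16 libraries. It passed for 244 of 2278 genes (10.7%), 200 shifted towards fat in DIO mice (8.78%) and 44 towards adrenal (1.93%). After rescaling 256 passed (11.2%), 172 towards fat (7.55%) and 84 towards adrenal (3.69%). With all 20 libraries of the 4 groups, 3 genes passed. Of the listed genes, both cholesterol ester genes were among the 244. Soat1 was at a mean of 10.2 CPM in lean fat, at 89.5, 102, 156, 106 and 73.1 CPM in the 5 DIO fat libraries and at 656, 696 and 584 CPM in DIO adrenal. Its rescaled difference was 2.45 ± 0.20 in DIO mice against 4.94 in lean mice (interaction −2.53 ± 0.36, adjusted p 0.000368). Nceh1 was at 98.4, 122, 127, 125 and 75.3 CPM in DIO fat and 274, 299 and 292 CPM in DIO adrenal (1.21 ± 0.16 in DIO mice; interaction −3.54 ± 0.29, adjusted p 2.18e-06). All DIO fat libraries were above all lean fat libraries for both genes. They were below all adrenal libraries for Soat1, while for Nceh1 2 of them lay above lean adrenal 2.

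**Figure D5:**
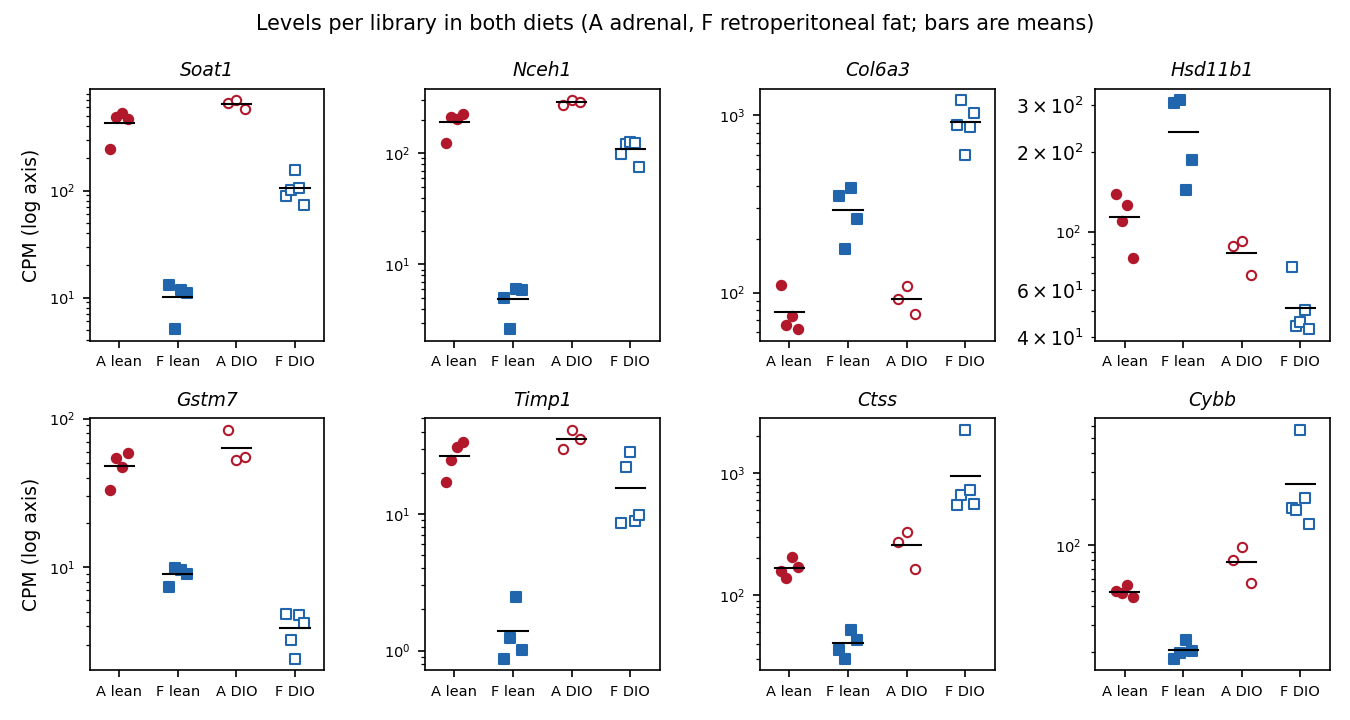
CPM per library on log axes for 8 genes with an interaction of tissue and diet, in lean adrenal (n = 4), lean fat (n = 4), DIO adrenal (n = 3) and DIO fat (n = 5); filled symbols are lean, open symbols DIO, and bars are group means. In most panels the fat groups differ more between diets than the adrenal groups; for Ctss and Cybb, DIO fat lies above lean adrenal, and for Hsd11b1, 4 of the 5 DIO fat libraries lie below every adrenal library.

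Leukocyte markers moved in the same direction. Of 9 macrophage markers tested in this fit, 7 shifted towards fat in DIO mice in limma and 0 towards adrenal. Over all genes the shares were 8.78% and 1.93%. At an unadjusted p under 0.05 in limma all 9 shifted towards fat, where 585 of all 2278 genes shifted in either direction. Of the 9, 7 passed the filter in the lean contrast. Atp6v0d2 and Fcgr1 (lean medians 8.27 and 7.22 CPM in adrenal, 2.185 and 2.92 CPM in fat) passed it here through their DIO levels. Both counts are thus not independent of the filter. Ctss was at 547, 662, 2256, 723 and 560 CPM in DIO fat and 273, 329 and 165 CPM in DIO adrenal, so the contrast turned from 1.69 to −1.90 ± 0.45 (interaction −3.62 ± 0.51, adjusted p 0.000368). Cybb turned from 0.89 to −1.70 ± 0.40 (interaction −2.61 ± 0.45, adjusted p 0.00184). DIO fat 3 was the highest library for both, and both passed without it. The macrophage marker sum was 215 to 354 CPM in lean fat, 1759 to 5456 CPM in DIO fat, 387 to 466 CPM in lean adrenal and 447 to 871 CPM in DIO adrenal. Of 5 lymphoid markers tested in this fit, 3 shifted towards fat (Cd48, Ptprc and Btk) and 0 towards adrenal. Of the 3, 2 passed after rescaling, without Cd48. Cd48 and Btk (lean medians 6.36 and 2.99 CPM in adrenal, 5.33 and 3.94 CPM in fat) passed the filter through their DIO levels. This count is thus not independent of the filter. The lymphoid marker sum was 50.7 to 66.4 CPM in lean fat and 190 to 954 CPM in DIO fat. The part of macrophages and lymphoid cells in the shift of Soat1 and Nceh1 was not tested.

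Fewer listed genes shifted towards adrenal. Hsd11b1 was at 73.5, 43.9, 45.5, 50.7 and 42.6 CPM in DIO fat and 88.3, 92.0 and 68.7 CPM in DIO adrenal. Lower in adrenal in lean mice, it was higher in DIO mice (0.50 ± 0.18, adjusted p 0.0366; interaction 1.85 ± 0.37, adjusted p 0.00513). Gstm7 was at 2.43 to 4.89 CPM in DIO fat and 52.7 to 84.3 CPM in DIO adrenal (interaction 1.55 ± 0.30, adjusted p 0.00471). The matrix genes Timp1 (interaction −2.21 ± 0.50, adjusted p 0.00921) and Col6a3 (−1.26 ± 0.39, adjusted p 0.0489) shifted the other way. Fabp5 shifted towards fat on the CPM scale but not after rescaling (−1.43 ± 0.45, adjusted p 0.0523). None of the 23 oxidative phosphorylation genes or of the 4 cortex regulators passed the interaction test in limma on the CPM scale. Of 18 granule genes 1 did, Syn1. At an unadjusted p under 0.05 in limma, 2 of each of the former lists shifted towards adrenal on the CPM scale. After rescaling, 5 of the 23 did so and 0 shifted towards fat. Of all 2278 genes, 585 were under that p in either direction on the CPM scale and 610 after rescaling.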

How the data were processed

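The authors deposited a table of CPM, read counts per 1000000 reads of a library; per the submitters' processing notes FastQC, STAR, HTSeq and DESeq2 were used, with versions, settings and genome build not given in the sources used here. Per the labels, libraries were made with a stranded TruSeq mRNA kit and sequenced as paired reads. In the table, 1 column had no sample in the labels and 1 gene lacked values; neither entered any step. Of 13153 gene identifiers, 13139 matched a symbol in GENCODE. CPM values were turned back into whole reads (100% of values whole within 0.001 read), which gave totals of 8.19 to 21.8 M reads for the 8 libraries.

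Genes whose mean over a fit's libraries reached 10 CPM were tested by limma 3.58.1 (R 4.3.3; trended prior variance) on log2(CPM + 1), two-sided, with Benjamini-Hochberg adjustment and a threshold of 0.05. The DIO contrast and the interaction of tissue and diet were fitted likewise. The script was tested on simulated reads. Alternatives were pseudocounts of 0.25 and 5, no filter or 50 CPM, median-of-ratios rescaling, edgeR 4.0.16 and DESeq2 1.42.0 on the recovered reads (1100 and 1169 genes called), array weights, a test against a log2 difference of 1, other sets of libraries, and each library left out in turn. Named genes were the 12 largest differences per direction among separated genes whose higher group averaged 50 CPM or more, the 6 most abundant of at least 4-fold genes, and up to 8 members per list plus those that did not pass. Folds against a group with no read use a floor of 3 reads over the group; these bounds and exact 95% intervals cover counting error only. The members, lists and left-out libraries were chosen with earlier results of these data known. Promoters are RefSeq windows of GRCm38.p6. Some named genes are not reported here.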

Additional observations from a re-analysis of the deposited data

Results flagged for a closer look

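For 90 named genes, each tissue's 4 libraries were searched for one that lay far from the other 3 (gap to the nearest, relative to the range, above Dixon's 95% critical value). Of 152 groups, 19 had such a library. Chance alone flags about 1 in 20, but the groups are genes of the same 8 libraries. Flags are thus not independent, and an excess over chance cannot be judged from this count.

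Lean adrenal 2 was that library in 11 cases. It was lowest for Hsd3b1 (4239 CPM) and Tmem35a (227 CPM). It was highest for Car3 (7389 CPM), Cat (749 CPM), Pfkfb3 (458 CPM), Fn1 (191 CPM), Mgst3 (94.4 CPM), Tmem182 (92.3 CPM), Col5a2 (88.7 CPM), Synpo2 (84.2 CPM) and Ctcflos (27.4 CPM). Each of these 9 genes was lower in adrenal than in fat. In the same library adipocyte markers stood at 47.1% of the fat mean, and their part was not tested. Without lean adrenal 2, 1336 genes passed in place of 1233.

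Lean fat 3 was that library in 7 cases, highest for Fabp4 (27224 CPM), Acadl (552 CPM), Idh3b (335 CPM), Mgst3 (266 CPM), Nr1h3 (175 CPM) and Ebp (62.8 CPM) and lowest for Tmem182 (136 CPM). Lean fat 4 was highest for Adora1 (204 CPM). Without lean adrenal 2 and lean fat 3 together, a setting chosen after seeing the data, 1520 genes passed.

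For 7 of the named genes, the tissue difference differed between diets in limma. On the CPM scale, the log2 difference in DIO minus that in lean mice was −3.62 for Nceh1, −2.64 for Soat1, −2.23 for Timp1, −1.57 for Fabp5 and −1.40 for Col6a3. It was 1.72 for Hsd11b1 and 1.44 for Gstm7. Of these 7, Fabp5 did not pass after rescaling (adjusted p 0.0523).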

How the results depend on the processing

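Of 90 named genes under 21 alternative settings, 47 kept direction and call in every setting. Over all genes and settings, 1710 results kept both, 131 no longer passed, 26 newly passed and none changed direction past the threshold. A test against a log2 difference of 1 accounted for 35 of the lost calls, edgeR for 15 and rescaling for 14.

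In the lean contrast (1233 called, 930 higher and 303 lower), 1993 genes passed without a filter (1471 and 522) and 484 with a minimum of 50 CPM (312 and 172). The split was 601 to 504 with rescaling, 569 to 531 in edgeR and 589 to 580 in DESeq2. A test against a log2 difference of 1 left 291 (236 and 55), and all 10 lean libraries left 738, 447 of them higher. Leaving out 1 library at a time gave 1017 to 1339 (751 to 1025 higher, 256 to 331 lower).

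In the DIO contrast, 2376 genes passed without a filter (1545 and 831) and 135 with all libraries (46 and 89). Leaving out 1 DIO library gave 1238 to 1670 (792 to 1120 higher, 437 to 550 lower). For the interaction (244, 44 towards adrenal and 200 towards fat), rescaling gave 84 towards adrenal. With all libraries 3 genes passed, 0 towards adrenal and 3 towards fat (limma; 71 and 145 at an unadjusted p under 0.05). Leaving out 1 DIO library gave 154 to 257 (18 to 50 towards adrenal, 133 to 213 towards fat), lowest without DIO adrenal 3 (154, 21 of them towards adrenal) and DIO adrenal 5 (156 and 18); without DIO adrenal 4, 29 shifted towards adrenal. Of 25 listed genes called here, 16 passed in every setting except that with all libraries. Causes were not tested. No paired analysis was possible because the labels give no replicate numbers and do not tie libraries to mice.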
